A study of Mus musculus with 6 samples.

Results

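The unfolded protein response and the folding machinery of the endoplasmic reticulum (ER) were followed through 36 genes out of 52550 genes listed. They were taken by symbol from a fixed list, which was chosen with earlier results of these data known. They comprised 4 stress sensors, 2 transcription factors, 12 chaperones and folding enzymes, 9 genes of ER-associated degradation, 5 genes of translocation and signal peptide processing, and 4 targets of the ATF4 type. The chaperone, degradation and translocation genes, 26 in all, were also grouped as targets of the ATF6/XBP1 type. All 36 had a row in every file.

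RNA-seq was performed on colon epithelial cells from 3 mice of the genotype Zfp90 fl/fl and 3 of the genotype Zfp90 ΔIEC, male C57BL/6 animals of 6 to 8 weeks at the start according to the labels. Every mouse, controls included, had received azoxymethane (AOM) at 10 mg/kg, a carcinogen that acts on the colon, and from 5 days later dextran sulfate sodium (DSS), a compound that injures the colon lining. DSS was given at 2% for 7 days and followed by 14 days of plain water, in 3 such cycles, and tissue was taken on day 80. In Zfp90 ΔIEC mice the Villin-cre transgene, which acts in the intestinal epithelium, removes exon 4 and the 3′ UTR of Zfp90, a zinc finger gene, while the controls carry the floxed alleles. The genotypes were kept in separate cages from weaning, and an effect of cage cannot be told apart from that of genotype. The genotype field of Zfp90 ΔIEC replicates 2 and 3 names another gene number, and these samples were grouped by their titles. There was no group without AOM and DSS, so that levels could be compared between genotypes but not with unstressed colon.

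Proteins that are secreted or sit in membranes enter the ER through the Sec61 channel and are folded there by chaperones such as BiP (encoded by Hspa5) and by protein disulfide isomerases. When unfolded protein accumulates, the sensors IRE1 (Ern1), PERK (Eif2ak3) and ATF6 start the unfolded protein response. IRE1 removes a short intron from Xbp1 mRNA so that it encodes an active transcription factor, ATF6 is cut to release a transcription factor, and both raise chaperones and degradation genes, while PERK slows translation and favours that of ATF4, which raises genes such as Ddit3 and Chac1. In the colon this machinery is most in demand in goblet cells, which fold and secrete mucin.

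The RNA feature on which IRE1 acts is shown because a gene-level value cannot separate its products. The stretch that IRE1 removes from mouse Xbp1 mRNA, in capitals below, has 26 bases and lies at positions 818 to 843 of the 2129 bases of transcript Xbp1-201 (GENCODE M21). The deposited values count all forms of Xbp1 mRNA together, so the spliced share was not measured.
Xbp1: agCACTCAGACTATGTGCACCTCTGCAGca

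The letters that ATF6 and XBP1 are known to read are shown because they are a feature of the ATF6/XBP1-type members that the measured values did not use, held by some of them and not by others. RefSeq promoters of build GRCm38.p6, running from 250 bases before to 50 after the start of a gene, were found for 29 of the 36 members. Hyou1, Sec11c, Atf6, Sec61a1, Ssr2, Manf and Derl1 were not among them. The ER stress response element, CCAAT and CCACG with 9 bases between, was searched on both strands and was held by 7 members and by 0.119% of all 32851 promoters. The windows below give this element in capitals, 5′ to 3′ on the stated strand. Those of Derl3 and Creld2, and the second of Hsp90b1, lie on the strand opposite to the gene.
Hspa5, chr2:34772020-34772048, plus strand: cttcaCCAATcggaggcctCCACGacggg
Hsp90b1, chr10:86705633-86705661, minus strand: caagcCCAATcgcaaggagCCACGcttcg
Hsp90b1, chr10:86705528-86705556, plus strand: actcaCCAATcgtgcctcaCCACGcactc
Pdia6, chr12:17266486-17266514, plus strand: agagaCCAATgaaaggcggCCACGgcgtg
Dnajc3, chr14:118937822-118937850, plus strand: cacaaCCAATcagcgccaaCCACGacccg
Creld2, chr15:88819515-88819543, minus strand: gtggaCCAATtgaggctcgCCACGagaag
Syvn1, chr19:6046527-6046555, plus strand: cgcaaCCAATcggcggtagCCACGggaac
Derl3, chr10:75893237-75893265, minus strand: gctagCCAATggggaagtcCCACGgtaga

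A second form of the element, ATTGG and CCACG with 1 base between, was held by Dnajb11 and Herpud1 and by 0.0365% of all promoters. Herpud1 and Chac1 held TTGCATCA, letters of the kind read by ATF4, as did 0.895% of all promoters. The core TGACGTGG, read by XBP1, was in the window of 0 members and in 0.676% of all promoters. These matches, in capitals below, describe the reference sequence and were not measured as bound sites.
Herpud1, chr8:94386372-94386392, plus strand: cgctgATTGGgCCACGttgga
Dnajb11, chr16:22857847-22857867, plus strand: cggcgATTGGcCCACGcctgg
Chac1, chr2:119351044-119351061, plus strand: tgccgTTGCATCActcct
Herpud1, chr8:94386312-94386329, plus strand: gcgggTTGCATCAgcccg

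Values were deposited as FPKM, the fragments assigned to a gene for each kilobase of its transcript and each M of mapped fragments, a scale corrected for transcript length. Low values rose in steps from which 25.75 to 28.65 M fragments per library were estimated. Zfp90 itself had 0.630, 0.490 and 0.569 FPKM in the 3 controls, and the Zfp90 ΔIEC libraries had 0.0846, 0.195 and 0.166 FPKM, without overlap. It was below the filter of 1 FPKM and did not pass in the fit without the filter (log2 fold change -0.44, limma adjusted p = 0.123). The summed level of 6 epithelial markers was 5634 to 6356 FPKM in Zfp90 fl/fl and 5588 to 6051 FPKM in Zfp90 ΔIEC mice, and lists for fibroblasts, smooth muscle and endothelium summed to between 0.120 and 1.15 FPKM in every mouse. Lists for leukocytes were low. Sums were lower without overlap in Zfp90 ΔIEC mice for macrophages (6.27 to 8.08 against 3.05 to 4.09 FPKM) and mast cells (17.0 to 25.2 against 4.99 to 9.39 FPKM). The genotypes overlapped for T cells (2.41 to 3.89 against 1.48 to 2.67 FPKM) and neutrophils (25.2 to 47.1 against 21.9 to 32.95 FPKM). Of the mast cell list, Mcpt1 and Mcpt2 were lower in Zfp90 ΔIEC mice (limma adjusted p = 0.00271 for each). Their means were 11.3 against 0.787 FPKM and 5.32 against 0.288 FPKM. Cpa3 was near 0, and Kit, most of the Zfp90 ΔIEC sum, was not lower (log2 fold change 0.10, limma adjusted p = 0.868). The neutrophil sum was nearly all Ly6g, while S100a8 and S100a9 were listed at 0 in all Zfp90 ΔIEC mice and were at 0.236 to 0.466 and 0.476 to 1.62 FPKM in controls, and Csf3r was lower in Zfp90 ΔIEC mice (limma without the filter, adjusted p = 0.0177). Plasma and B cells, of which plasma cells hold much ER, gave 52.1 to 54.8 and 51.4 to 54.8 FPKM, nearly all of it from Sdc1, which epithelium also expresses, while Mzb1 reached at most 0.118 FPKM and Tnfrsf17 was listed at 0 in all. Of the same list Igha, an antibody chain, was lower without overlap in Zfp90 ΔIEC mice, at 1.60, 1.54 and 2.29 against 0.526, 0.271 and 0.469 FPKM (limma adjusted p = 0.0545), as were Jchain, with means of 0.527 and 0.0809 FPKM, and Cd79a. The part of these cells in the members' levels was not tested. Enteroendocrine markers summed to 89.2 to 100.2 against 106 to 131 FPKM. None of those tested passed the threshold, and the mean of Pyy was lower in Zfp90 ΔIEC mice, at 13.9 against 13.0 FPKM. Tuft cell markers summed to 1.16 to 1.49 against 0.557 to 1.03 FPKM, and all 4 were below the filter, none exceeding 0.978 FPKM. Genes that react to tissue handling summed to 2687 to 2903 against 2693 to 2947 FPKM. In such bulk samples, fewer cells of a type and less RNA per cell cannot be told apart.

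Whether deletion of Zfp90 in the epithelium is accompanied by a change of the unfolded protein response was examined gene by gene. No member passed the threshold of an adjusted p under 0.05 (limma on log2(FPKM + 1), Benjamini-Hochberg over 11564 genes), with 0 of 33 tested members called where 0.199% of all genes tested were called. The other 3 members, Derl3, Trib3 and Chac1, were below the filter of 1 FPKM in at least 3 samples. The smallest adjusted p of a member was 0.294, that of Sdf2l1. At an unadjusted p under 0.05, 1 member, Sdf2l1, was higher in Zfp90 ΔIEC mice and 0 were lower, against 6.56% and 8.09% of all genes tested.

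The differences that the data leave room for were small for most members. Of the 33 tested, 27 had a 95% confidence interval of the log2 fold change that lay within 0.5 of 0 on both sides, and all 33 lay within 1, with a median half-width of 0.20. The widest interval was that of Ppp1r15a, from -0.81 to 0.71. Groups did not overlap in 1 tested member in each direction, Sdf2l1 higher and Atf6b lower in Zfp90 ΔIEC mice, against 8.73% and 12.6% of all genes tested, and Chac1, below the filter, was also higher without overlap. The log2 fold change was above 0 in 25 of the 33 and below 0 in 8, while 42.8% of all genes tested were above 0. The median was 0.06 over the members and -0.02 over all genes tested.

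**Figure D1:**
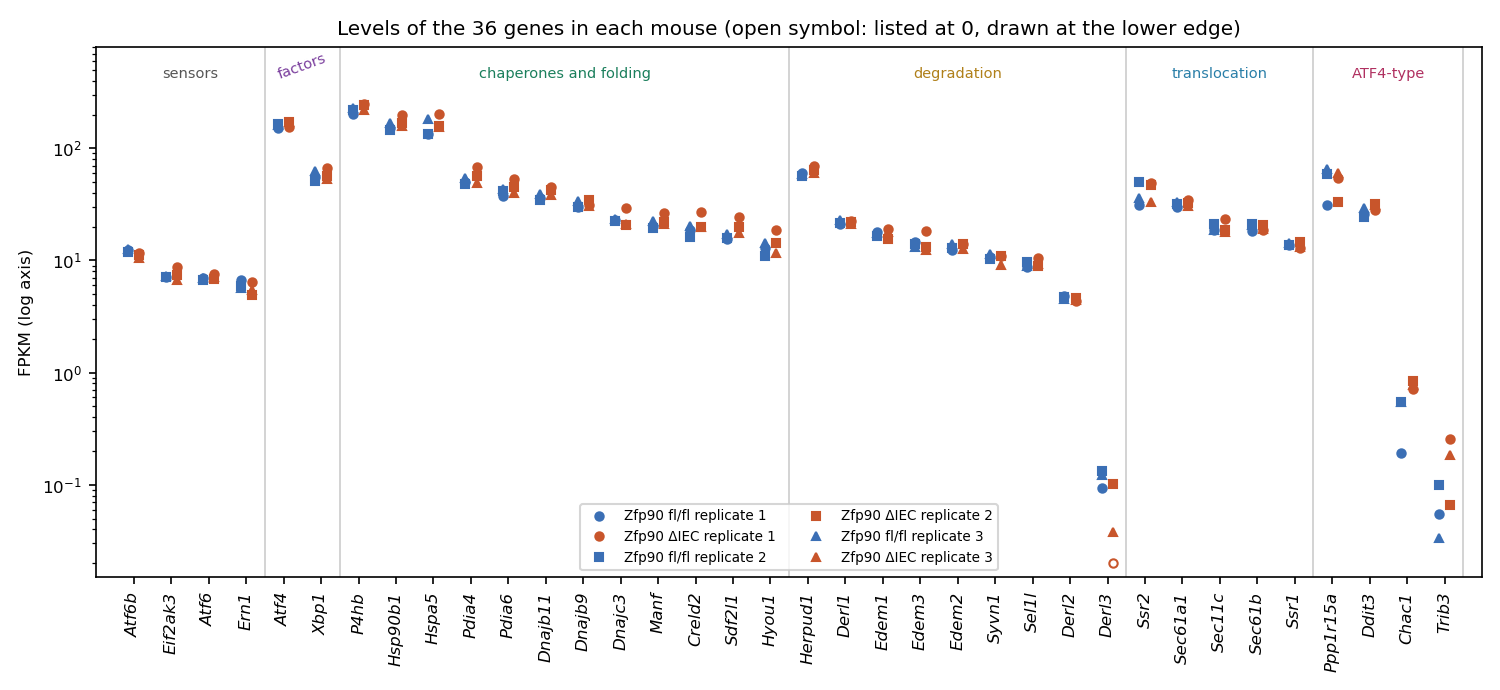
FPKM on a log axis of each of the 36 members, grouped by role, with 1 point per mouse for the 3 Zfp90 fl/fl and 3 Zfp90 ΔIEC mice. P4hb, Hspa5, Hsp90b1 and Atf4 sit above 100 FPKM in every mouse, Derl3, Trib3 and Chac1 sit below 1, and in most rows the points of both genotypes intermix.

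**Figure D2:**
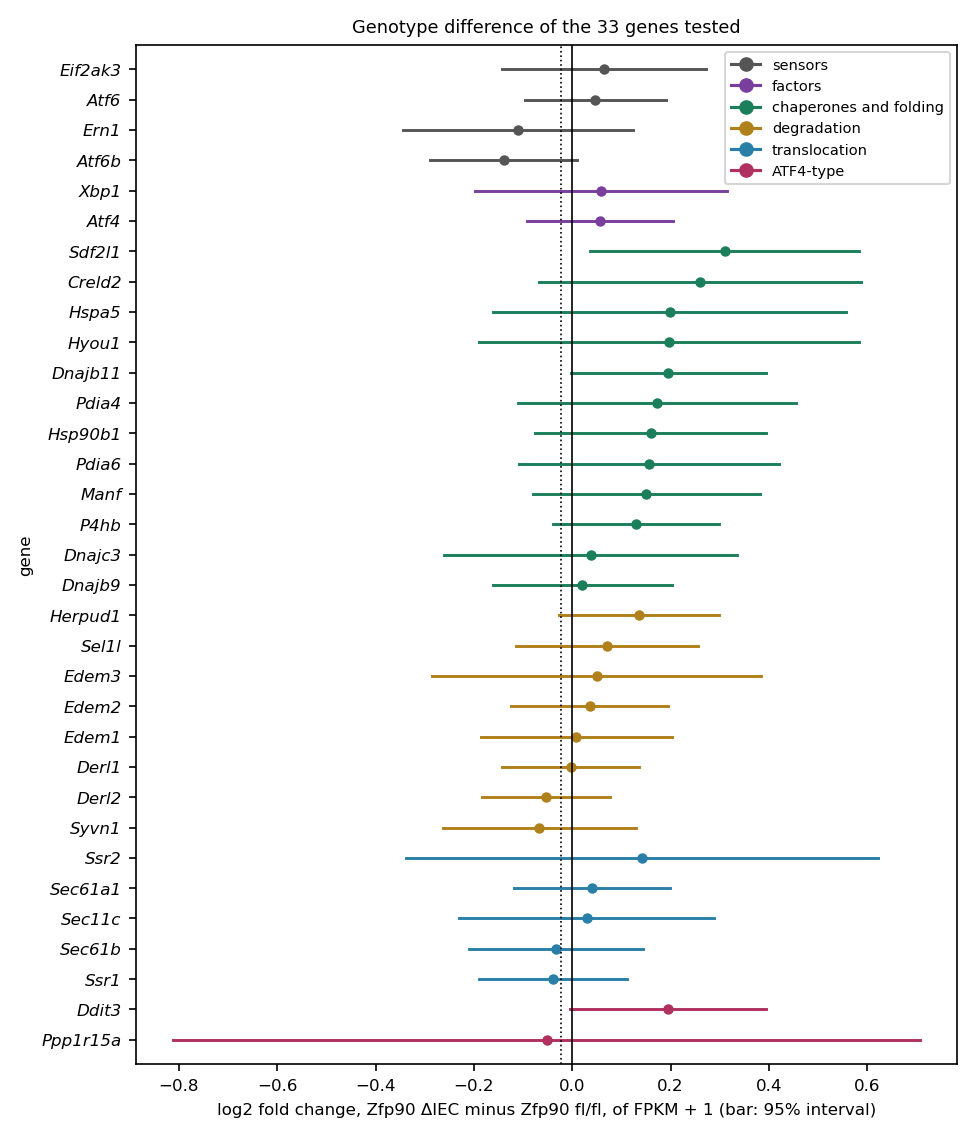
Log2 fold change of Zfp90 ΔIEC over Zfp90 fl/fl with its 95% confidence interval for the 33 tested members, on the log2(FPKM + 1) scale, with a line at 0 and a dotted line at the median of all genes tested, -0.02. The 12 chaperone and folding genes all sit to the right of 0, and every interval but that of Sdf2l1 includes 0.

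The 4 sensors had a median control level of 7.03 FPKM, beside 6.40 FPKM over all genes tested, and were close in both genotypes. Ern1, which encodes IRE1, was measured at 6.69, 5.88 and 5.65 FPKM in Zfp90 fl/fl mice and at 6.37, 4.92 and 5.42 FPKM in Zfp90 ΔIEC mice. Eif2ak3, which encodes PERK, was measured at 7.14, 7.14 and 7.24 FPKM and at 8.67, 7.38 and 6.72 FPKM. Both overlapped between genotypes, the Zfp90 ΔIEC values of Eif2ak3 lying on either side of the controls, with log2 fold changes of -0.11 (SE 0.0988, adjusted p = 0.660) and 0.07 (SE 0.0877, adjusted p = 0.775). Atf6 was at 7.04, 6.68 and 6.92 FPKM and at 7.55, 6.77 and 7.12 FPKM, again with overlap (log2 fold change 0.05, SE 0.0602, adjusted p = 0.760).

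Atf6b, the paralog of Atf6, was at 12.5, 11.8 and 12.7 FPKM in Zfp90 fl/fl mice and at 11.7, 11.2 and 10.4 FPKM in Zfp90 ΔIEC mice. Every Zfp90 ΔIEC value was below every control value, by a narrow gap, and the difference did not pass the test (log2 fold change -0.14, SE 0.0630, adjusted p = 0.376, 95% interval -0.29 to 0.01).

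The mRNAs of both transcription factors were abundant. Xbp1 was measured at 55.6, 51.3 and 63.2 FPKM in Zfp90 fl/fl mice and at 67.0, 56.9 and 53.4 FPKM in Zfp90 ΔIEC mice. Atf4 was measured at 152.9, 163.7 and 162.6 FPKM and at 155.7, 172.8 and 169.9 FPKM. Each pair of groups overlapped, with log2 fold changes of 0.06 (SE 0.108, adjusted p = 0.841) for Xbp1 and 0.06 (SE 0.0627, adjusted p = 0.729) for Atf4. Since ATF4 is set largely by translation and XBP1 by splicing, these values give the amount of mRNA and not the activity of either factor.

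The chaperones and folding enzymes shared 1 sign. All 12 had a log2 fold change above 0, with a median of 0.17 and a range of 0.02 to 0.31, and 0 passed the threshold. The largest was that of Sdf2l1, a stabiliser of the BiP cycle, at 15.6, 15.9 and 17.4 FPKM in Zfp90 fl/fl mice and 24.3, 19.9 and 17.5 FPKM in Zfp90 ΔIEC mice. All Zfp90 ΔIEC values lay above the controls, the lowest of them only just (log2 fold change 0.31, SE 0.115, adjusted p = 0.294, 95% interval 0.04 to 0.58).

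Hspa5, the master chaperone of the ER and the usual marker of the response, was measured at 134, 134 and 182 FPKM in Zfp90 fl/fl mice and at 202, 159 and 154 FPKM in Zfp90 ΔIEC mice. Control replicate 3 exceeded Zfp90 ΔIEC replicates 2 and 3, and the difference was within the spread (log2 fold change 0.20, SE 0.152, adjusted p = 0.597, 95% interval -0.16 to 0.56). Hsp90b1, which encodes the ER chaperone GRP94, gave 152, 145 and 169 FPKM and 198, 168 and 158 FPKM (log2 fold change 0.16, adjusted p = 0.518). Creld2, a secreted stress protein, gave 18.6, 16.1 and 20.2 FPKM and 27.2, 19.8 and 19.8 FPKM (log2 fold change 0.26, SE 0.138, adjusted p = 0.442). In both genes Zfp90 ΔIEC replicate 1 stood highest and control replicate 3 reached the level of the remaining Zfp90 ΔIEC mice.

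The partners of BiP were similar. Dnajb11, a BiP cochaperone, was at 35.8, 34.2 and 39.4 FPKM and at 45.03, 42.9 and 38.0 FPKM (log2 fold change 0.20, SE 0.0837, adjusted p = 0.346). Hyou1, the nucleotide exchange factor of BiP, was at 12.9, 10.96 and 14.2 FPKM and at 18.5, 14.3 and 11.8 FPKM (log2 fold change 0.20, SE 0.163, adjusted p = 0.633). In both, 1 Zfp90 ΔIEC mouse fell within the control range or below it. The smallest differences of the 12 were those of the cochaperones Dnajb9 (0.02, adjusted p = 0.921) and Dnajc3 (0.04, adjusted p = 0.914). The disulfide isomerases P4hb, Pdia4 and Pdia6 had log2 fold changes of 0.13, 0.17 and 0.16, with adjusted p-values of 0.454, 0.556 and 0.571, and the stress-secreted factor Manf had 0.15 (adjusted p = 0.532).

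The size of the difference varied with individual mice. Zfp90 ΔIEC replicate 1 had the highest of the 6 values in 11 of the 12 genes, all but Dnajb9, where 17.9% of all genes tested were highest in that mouse, and in 20 of the 33 tested members. Within the controls, replicate 3 was highest in 12 of 12, and within the Zfp90 ΔIEC mice replicate 3 was lowest in 11 of 12. Relative to the control mean, the median log2 level of the 12 was -0.03, -0.08 and 0.11 in Zfp90 fl/fl replicates 1 to 3 and 0.36, 0.13 and 0.03 in Zfp90 ΔIEC replicates 1 to 3. The genes are therefore not independent of each other, and their shared sign was seen over 3 mice against 3. Without Zfp90 ΔIEC replicate 1 the median log2 fold change was 0.06, with 11 of 12 above 0, and without Zfp90 fl/fl replicate 3 it was 0.22, with 12 of 12 above 0.

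Some genes of goblet cells also stood highest in Zfp90 ΔIEC replicate 1, and others did not. Muc2, the main secreted mucin of the colon, was at 440, 444 and 431 FPKM in Zfp90 fl/fl mice and at 1010, 593 and 465 FPKM in Zfp90 ΔIEC mice. Agr2, a disulfide isomerase needed for folding mucin, was at 555, 588 and 541 FPKM and at 1026, 711 and 633 FPKM. Both were higher in every Zfp90 ΔIEC mouse, and neither passed the test (log2 fold changes 0.57 and 0.46, adjusted p = 0.368 and 0.284). The 8 goblet cell markers summed to 1430, 1895 and 1504 FPKM and to 2396, 1846 and 2198 FPKM. Of these 8, Muc2 and Zg16 were highest in Zfp90 ΔIEC replicate 1, Tff3, Fcgbp, Clca1 and Ang4 in Zfp90 ΔIEC replicate 3, Spdef in Zfp90 ΔIEC replicate 2 and Retnlb in a control. The mean FPKM was higher in Zfp90 ΔIEC mice for 7 of them, although for Ang4 the log2 fold change was -0.05, and it was lower for Retnlb, at 78.2 against 36.3 FPKM (log2 fold change -1.18, limma adjusted p = 0.243). None of the 8 passed the test and none was listed at 0 throughout. Markers of mature colonocytes summed to 6113 to 7944 against 8952 to 13063 FPKM, highest in Zfp90 ΔIEC replicate 2. Most of this sum was Car1, at 4033 to 5628 against 6349 to 10059 FPKM. Krt20, Car1 and Guca2a were highest in Zfp90 ΔIEC replicate 2, and Car4, Slc26a3, Aqp8, Ceacam20 and Muc3 in Zfp90 ΔIEC replicate 3. The mean was higher in Zfp90 ΔIEC mice for 7 of these 8 and lower for Ceacam20. None of these 8 passed the test (Car1, limma adjusted p = 0.162). The part of these cell types in the levels of the chaperones was not tested.

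**Figure D3:**
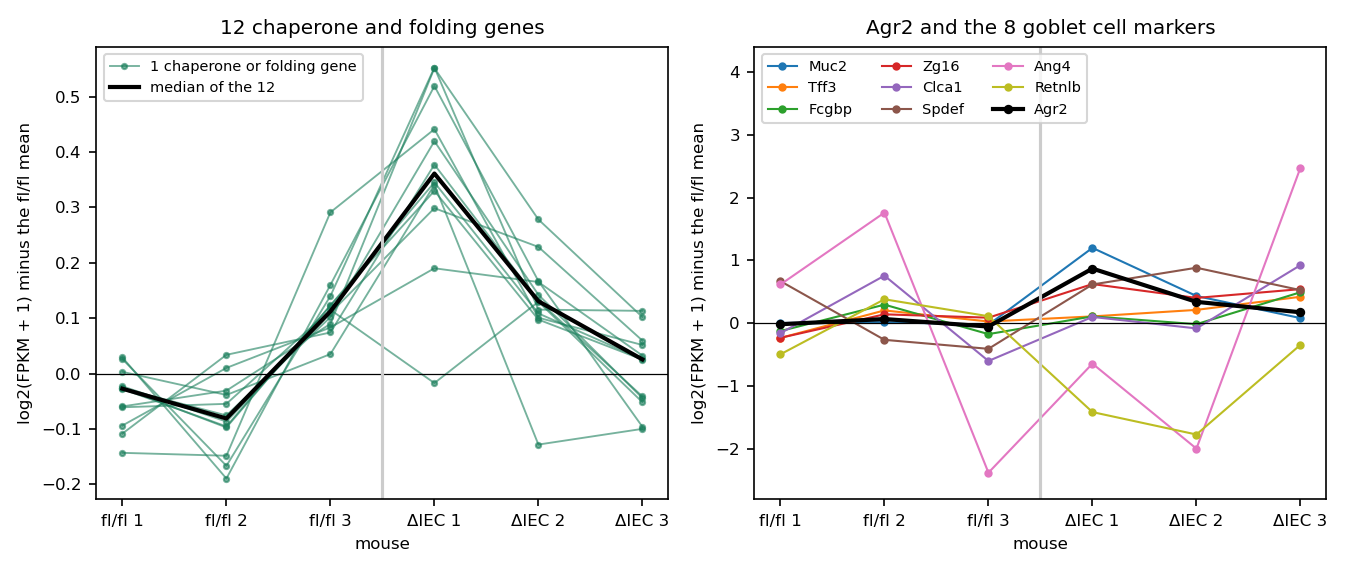
Log2(FPKM + 1) of each gene minus its Zfp90 fl/fl mean, for the 12 chaperone and folding genes with their median (left) and for Agr2 and the 8 goblet cell markers (right, on a wider axis), by mouse; lines join the values of 1 gene and imply no order. The chaperone median is 0.36 in Zfp90 ΔIEC replicate 1 and 0.03 in replicate 3, and Muc2 and Agr2 are also highest in replicate 1, whereas other goblet markers such as Ang4 and Retnlb are not.

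Genes of ER-associated degradation, which carries misfolded proteins back to the cytosol for destruction, were split in sign. Of the 8 tested, 5 were above 0 and 3 below, with a median log2 fold change of 0.02. The largest difference was that of Herpud1, a scaffold of the degradation complex, at 60.8, 56.2 and 59.3 FPKM in Zfp90 fl/fl mice and 69.6, 64.3 and 60.4 FPKM in Zfp90 ΔIEC mice. Only control replicate 1 reached into the Zfp90 ΔIEC range (log2 fold change 0.14, SE 0.0686, adjusted p = 0.421). The ubiquitin ligase Syvn1 and its adaptor Sel1l differed by -0.07 (adjusted p = 0.756) and 0.07 (adjusted p = 0.722). The mannosidase-like proteins Edem1, Edem2 and Edem3, which mark glycoproteins for removal, lay between 0.01 and 0.05, and the derlins Derl1 and Derl2, part of the exit channel, were at -0.0034 and -0.05. Derl3, a derlin typical of secretory cells, was listed at 0.0931, 0.133 and 0.121 FPKM and at 0, 0.102 and 0.0376 FPKM, an estimated 0 to 4.93 fragments per library, too few for a comparison.

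Translocation genes, which bring proteins into the ER, also lay around 0. Their 5 log2 fold changes had a median of 0.03, 3 above 0 and 2 below. Sec61a1 and Sec61b, subunits of the channel, were at 0.04 (adjusted p = 0.817) and -0.03 (adjusted p = 0.877), Sec11c, of the signal peptidase, at 0.03 (adjusted p = 0.921), and Ssr1, of the translocon-associated complex, at -0.04 (adjusted p = 0.819). Ssr2, of the same complex, varied most within a genotype, at 31.3, 50.1 and 36.1 FPKM and at 49.2, 46.7 and 33.4 FPKM (log2 fold change 0.14, SE 0.203, adjusted p = 0.790). Its control values alone spanned the whole range of the 6 mice.

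Over the ATF6/XBP1-type targets as a whole, 20 of the 25 tested were above 0 and 5 below, with a median log2 fold change of 0.07, which was 0.04 without Zfp90 ΔIEC replicate 1, with 15 above 0. Of those with a promoter, the 8 that hold either form of the stress element printed above had a median of 0.16 (from -0.07 for Syvn1 to 0.26 for Creld2, with 7 above 0). The 11 without it had a median of 0.04 (from -0.05 for Derl2 to 0.31 for Sdf2l1, with 8 above 0). Sdf2l1, the gene of the largest difference, thus lacks these letters in its window, and the ranges overlap widely. Most of the 8 are chaperones or folding enzymes, and most of the 11 are degradation or translocation genes. Among the chaperones and folding enzymes alone, those with the element ran from 0.04 (Dnajc3) to 0.26 (Creld2). Those without it ran from 0.02 (Dnajb9) to 0.31 (Sdf2l1). The difference between the 2 medians was not tested.

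The ATF4-type members differed among themselves. Ddit3, which encodes the transcription factor CHOP, was measured at 26.1, 24.3 and 29.4 FPKM in Zfp90 fl/fl mice and at 28.5, 31.9 and 31.2 FPKM in Zfp90 ΔIEC mice. Ppp1r15a, which encodes GADD34 and restores translation, was at 31.1, 58.9 and 65.1 FPKM and at 54.1, 32.9 and 59.9 FPKM. Ddit3 overlapped by a single pair of mice (log2 fold change 0.19, SE 0.0842, adjusted p = 0.353, 95% interval -0.0047 to 0.39). Ppp1r15a spread over a wide range in both genotypes (log2 fold change -0.05, SE 0.320, adjusted p = 0.954). Ppp1r15a also reacts quickly to handling, and the part of handling in its spread was not tested.

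The remaining pair was measured below 1 FPKM. Chac1, which degrades glutathione, was at 0.1901, 0.542 and 0.549 FPKM in Zfp90 fl/fl mice and at 0.707, 0.846 and 0.772 FPKM in Zfp90 ΔIEC mice, an estimated 8.01 to 25.4 and 31.6 to 39.7 fragments per library. All Zfp90 ΔIEC values lay above the controls, with a ratio of means of 1.81, and the test without the filter gave a log2 fold change of 0.32 (SE 0.119, limma adjusted p = 0.444). Trib3, a pseudokinase that restrains the response, was at 0.0549, 0.101 and 0.0334 FPKM and at 0.258, 0.0656 and 0.185 FPKM, with overlap, and rested on an estimated 1.91 to 14.3 fragments (log2 fold change 0.14, SE 0.0642, adjusted p = 0.555). The log2(FPKM + 1) scale understates the ratio of such low genes. Over all 4 members without the filter the median was 0.16, beside -0.0047 over all genes so fitted.

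The other known targets of ATF4, 26 further genes that include those of amino acid synthesis, transport and tRNA charging and stress factors, were mostly above 0. Of the 24 tested, 20 were above 0 and 4 below, with a median log2 fold change of 0.11, which was 0.10 without Zfp90 ΔIEC replicate 1, with 19 above 0. None passed the threshold, while 7 were higher and 0 lower at an unadjusted limma p under 0.05, against 6.56% and 8.09% of all genes tested. In 9 of them every Zfp90 ΔIEC mouse exceeded every control, Atf5, Psat1, Phgdh, Gdf15, Slc7a5, Slc3a2, Aldh18a1, Cars and Nars, against 8.73% of all genes tested. The transporter Slc7a11, below the filter, was lower without overlap.

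Gdf15, a secreted stress cytokine, was measured at 6.78, 4.75 and 3.13 FPKM in Zfp90 fl/fl mice and at 10.4, 8.94 and 9.21 FPKM in Zfp90 ΔIEC mice. Phgdh, the first enzyme of serine synthesis, was at 3.98, 3.76 and 4.38 FPKM and at 5.03, 7.05 and 5.36 FPKM. The groups were apart in both, and the highest Phgdh value was that of Zfp90 ΔIEC replicate 2, not of replicate 1. The log2 fold changes were 0.88 for Gdf15 (SE 0.212, adjusted p = 0.134) and 0.43 for Phgdh (SE 0.117, adjusted p = 0.177). Further genes, named here after their values were seen, were Psat1 of serine synthesis at 0.31 (adjusted p = 0.208), Aldh18a1 of proline synthesis at 0.26 (adjusted p = 0.260) and the amino acid transporter Slc7a5 at 0.22 (adjusted p = 0.259). Atf3, a stress factor and one of the targets, was at 451, 502 and 496 FPKM and at 472, 427 and 536 FPKM, with wide overlap (log2 fold change -0.02, adjusted p = 0.937).

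Markers of proliferating cells, which also need amino acids, were also higher. Their sum over 6 genes was 87.8 to 93.5 FPKM in Zfp90 fl/fl mice and 108 to 120 FPKM in Zfp90 ΔIEC mice, all 6 means were higher, and Mki67 passed the test narrowly (log2 fold change 0.41, SE 0.0512, limma adjusted p = 0.0478). That call was lost with any 1 sample left out (adjusted p from 0.0641 to 0.163) and with the replicate block (adjusted p = 0.0833). Their part in the levels of the ATF4 targets was not tested.

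**Figure D4:**
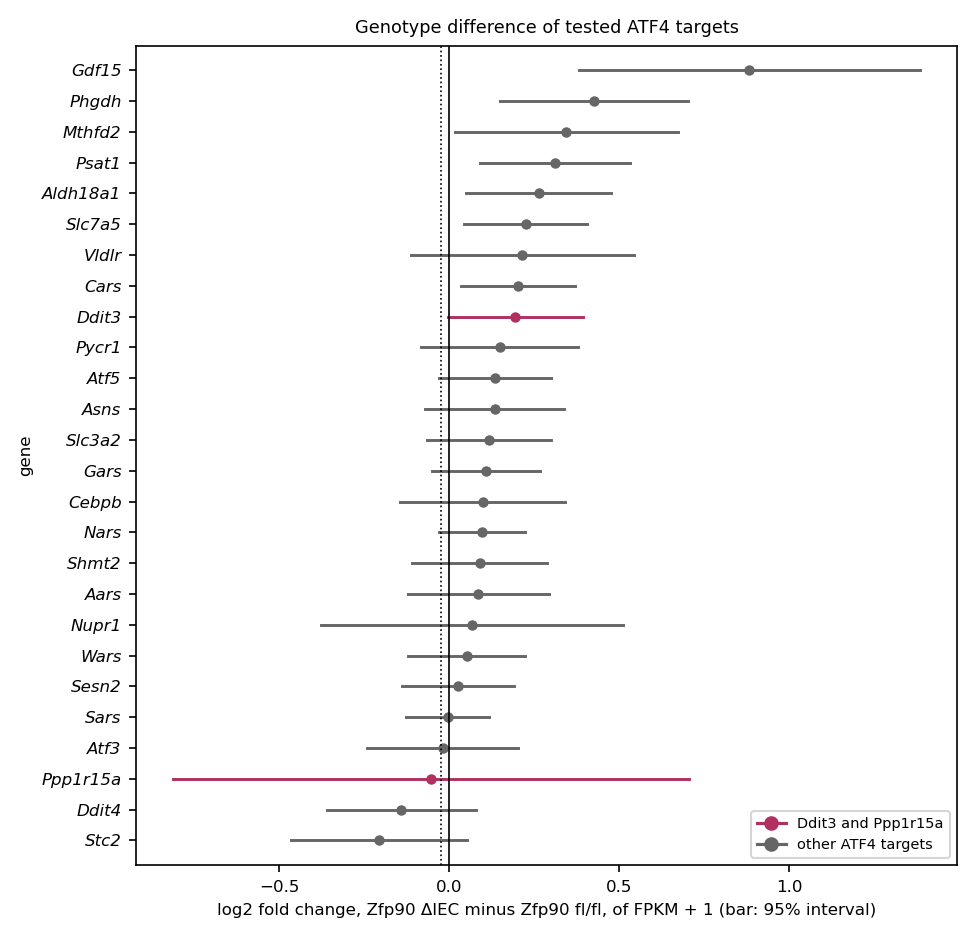
Log2 fold change of Zfp90 ΔIEC over Zfp90 fl/fl with its 95% confidence interval for the tested ATF4 targets. The members Ddit3 and Ppp1r15a are drawn in a separate color from the other ATF4 targets. A line marks 0 and a dotted line the median of all genes tested, -0.02. Chac1 and Trib3, below the filter, are not drawn, and 20 of the 24 other targets lie above 0, led by Gdf15 at 0.88.

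The 5 pathway lists together held 0 of 105 tested genes past the threshold (limma), with 9 higher and 1 lower at an unadjusted p under 0.05, where 6.56% and 8.09% of all genes tested were. Of 24 further folding genes, 16 were above 0 and 8 below, with a median log2 fold change of 0.06, which was -0.03 without Zfp90 ΔIEC replicate 1, and 14 were highest in that mouse. The gene nearest to the threshold in all 5 pathway lists was Ero1l, which encodes the oxidase that recharges disulfide isomerases, at 15.4, 15.02 and 15.5 FPKM in Zfp90 fl/fl mice and at 12.03, 11.1 and 12.1 FPKM in Zfp90 ΔIEC mice. All Zfp90 ΔIEC values were well below the controls, opposite in sign to the isomerases among the members (log2 fold change -0.36, SE 0.0564, adjusted p = 0.0681, 95% interval -0.49 to -0.22).

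Of 17 other sensors and regulators tested, 6 were above 0 and 11 below (median -0.02). Ern2, which encodes the form of IRE1 found in mucus-secreting epithelium, was at 22.1, 21.6 and 16.6 FPKM and at 24.7, 19.9 and 19.0 FPKM, above the level of Ern1 in every mouse and with wide overlap (log2 fold change 0.08, SE 0.137, adjusted p = 0.837). The ER-bound factors Creb3l4 and Creb3l2 had the largest differences of this list, 0.20 (adjusted p = 0.594) and -0.10 (adjusted p = 0.726). Of 17 other degradation genes, 5 were above 0 and 12 below (median -0.04), with the lectin Erlec1 at -0.20 (adjusted p = 0.401) and Selk at 0.15 (adjusted p = 0.346). Of 23 other translocation genes tested, 15 were above 0 and 8 below (median 0.03), with Magt1, of the glycosylation complex, at 0.18 (adjusted p = 0.2999) and Sec11a, of the signal peptidase, at -0.15 (adjusted p = 0.708).

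Cytosolic heat shock genes, which respond to unfolded protein outside the ER, were set beside the members. Of 15 tested, 11 were above 0 and 4 below, with a median log2 fold change of 0.07, which was -0.02 without Zfp90 ΔIEC replicate 1, and 0 passed the threshold. Hsph1 was at 20.6, 9.10 and 18.6 FPKM and at 32.0, 18.6 and 12.5 FPKM (log2 fold change 0.34, SE 0.389, adjusted p = 0.730). On the log2(FPKM + 1) scale this was a wider spread within each genotype than that of any ER chaperone among the members. Hsp90aa1, the inducible cytosolic HSP90, differed by 0.34 (SE 0.172, adjusted p = 0.417). The median of the heat shock genes and that of the ER chaperones, 0.07 and 0.17, were not tested against each other.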

How the data were processed

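Colon epithelial RNA of 6 mice was sequenced, and per-gene FPKM were deposited by the authors in a file for each sample. The methods name paired-end reads, TopHat with a human genome and Cuffdiff, whereas the submitters' processing notes list FastQC, STAR 2.5, Cuffnorm, DESeq 1.22.1 and mm9. The files hold mouse identifiers. Their headers do not name the unit, which follows from the methods and the values. Of 52550 genes, 52403 had a symbol.

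On the scale log2(FPKM + 1), the 11564 genes that reached 1 FPKM in 3 or more samples were tested with limma 3.58.1 (intensity trend) in R 4.3.3, with Benjamini-Hochberg adjustment and a threshold of 0.05. Confidence intervals (95%) come from this fit. Genes below the filter take their values from a fit without it. Fold changes are on the log2(FPKM + 1) scale and are smaller than those of FPKM for low genes. In data simulated from these samples, 83% of 200 genes changed 1.5-fold and 96.5% of 200 changed 2-fold were recovered. Among unchanged genes 13 and 11 were called. The simulation drew genes independently of each other and took the changed ones from above a minimum level. It held no change below 1.5-fold, so it does not give the power for differences as small as those of the members.

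Depth was estimated from steps of 1 fragment in genes with low values, of which 52.2% to 57.6% lay within 10% of a whole step, so estimated fragments are approximate. Promoters are from RefSeq (GRCm38.p6). The labels do not say more of the replicates than that they are separate samples, and p-values measure the spread between them. The labels' age and DSS concentration are given, which differ from those in the methods.

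The members and all lists (5 further pathway lists, cytosolic heat shock, 15 marker lists) were chosen with earlier results of these data known. All 36 members were named by role. Of each further list the 2 genes of largest change were named, and others were chosen after their values were seen. Alternatives were a pseudocount of 0.1, no filter, median ratio scaling, quantile normalization, a replicate block and leaving out each sample. Python 3.11.15 with numpy 2.4.6, matplotlib 3.10.9 and pandas 2.3.3 made the tables and plots.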

Additional observations from a re-analysis of the deposited data

How the results depend on the processing

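Under every alternative 0 members and 0 genes of the further pathway lists passed the threshold. Over all genes the count of 23 was 15 without the filter, 13 at a pseudocount of 0.1, 47 with the replicate block, and from 10 to 21 with 1 sample left out, the fewest without Zfp90 fl/fl replicate 2. Same-numbered samples correlated by 0.19, 0.11 and 0.08 in their deviations, all above the values of differently numbered samples, which ran from -0.13 to 0.01. The labels name no pairs, so the main fit had no block, and whether same-numbered samples share a source was not tested. The block called 0 members.

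The median log2 fold change of the chaperones ran from 0.06 (without Zfp90 ΔIEC replicate 1) to 0.26 (without Zfp90 ΔIEC replicate 3), that of all ATF6/XBP1-type targets from 0.04 to 0.15, that of the 2 tested ATF4-type members from -0.10 to 0.21, and that of the other ATF4 targets from 0.09 to 0.15.

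The sign of 13 of the 33 tested members changed in at least 1 alternative, all with a reported log2 fold change of at most 0.14 in size. Derl1 was 0.0184 under median ratio scaling and 0.0022 under quantile normalization. With 1 sample left out, Derl1 ran from -0.0305 to 0.0328, Dnajb9 from -0.0343 to 0.0780, Dnajc3 from -0.11 to 0.12, Edem1 from -0.0494 to 0.0851, Edem3 from -0.12 to 0.15, Eif2ak3 from -0.0232 to 0.14, Ppp1r15a from -0.38 to 0.21, Sec11c from -0.0867 to 0.11, Sec61a1 from -0.0012 to 0.0854, Sec61b from -0.10 to 0.0039, Ssr2 from -0.0023 to 0.33, Syvn1 from -0.11 to 0.0134 and Xbp1 from -0.0338 to 0.14. The cause was not tested. Members below 1 FPKM rest on few fragments, and 3 mice per genotype limit the precision of the rest.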
